A study of Sus scrofa with 8 samples.

Results

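The ZNF genes studied here are the 242 protein-coding genes on pig chromosomes 1 to 18 whose RefSeq symbol begins with ZNF and a digit, out of 16298 named protein-coding genes on these chromosomes and X. They were chosen by symbol and chromosome, and no measured value selected a gene, but the family was taken up with earlier results of these data known, so its counts are given as a description beside those of all genes. They lay on 17 chromosomes, with 77 on chromosome 6, 31 on chromosome 3 and 21 on chromosome 14. Another 12 ZNF genes on X, and zinc finger genes without a ZNF symbol, were not included.

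Most ZNF genes encode proteins with arrays of C2H2 zinc fingers, small folds around a zinc ion that each read a few bases of DNA. A large subgroup also carries a KRAB domain, which recruits the corepressor TRIM28 and the H3K9 methyltransferase SETDB1 to silence retrotransposons and imprinted loci, and many of these genes sit in tandem clusters. Others bind DNA without a KRAB domain, bind RNA, or act in ribosome quality control, so the shared symbol does not define a shared function.

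H3K27ac, a histone mark of active promoters and enhancers, was mapped by ChIP-seq in 2 pig cell types. Pre-gastrulation epiblast stem cells (pgEpiSC) came from the epiblast of embryonic day 10, and embryonic fibroblasts (pEF) from fetuses of day 30. Each type had 2 H3K27ac libraries with matching inputs, here called pgEpiSC 1 and 4 and pEF 1 and 2. The labels name no treatment or genotype and do not tell which line, animal or culture each library came from, so p-values measure only the spread between these libraries.

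The deposited lists held 57790 to 74208 islands per library, which are stretches where ChIP reads cluster, with 29679982 to 46383051 ChIP reads inside them. Length and enrichment of the islands move with cell type and so stand beside every difference below. Islands were longer in pgEpiSC, with medians of 4.8 and 4.2 kb against 3 and 3.2 kb in pEF, and less enriched, with median folds over input of 1.80 and 1.67 against 3.47 and 3.46. Islands of at least 2-fold over input made up 37.1% and 27.8% of the pgEpiSC lists and 84.7% and 85.6% of the pEF lists. The labelled types carried islands at their own markers: 5 epiblast genes summed to 138 and 133 kb in pgEpiSC and 11.6 and 10.6 kb in pEF, and 5 fibroblast genes to 17.1 and 13.9 kb against 173 and 174 kb. Markers of other cell types were also seen. The 4 blood genes summed to 54.1 and 38.2 kb in pgEpiSC and 13.6 and 18.6 kb in pEF, with CD34 at 0 in all 4 libraries, and the 3 endothelial genes to 43.3 and 45.1 kb against 12 and 17.8 kb, with KDR at 0 throughout. The 3 trophectoderm genes summed to 3.6 and 8.4 kb in pgEpiSC and 31.4 and 24.6 kb in pEF, with CDX2 at 0 throughout. The part of such cells in the results was not tested, and in bulk chromatin the share of cells that carry a mark and its level per cell cannot be told apart.

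Most ZNF genes had an island called at a gene end in both cell types. An island lay within 2 kb of either end of the gene in all 4 libraries at 207 of the 242 genes, or 85.5%, while the share over all genes was 67.8%. Only 5 ZNF genes had an end island in both pgEpiSC libraries and neither pEF library, where 7.31% of all genes did, and 5 had one in both pEF libraries alone, where 4.48% of all genes did. No end island was called in any library at 9 ZNF genes, or 3.72%, beside 10.1% of all genes, and the other 16 had mixed patterns. Strand was not given in the gene table, so the start and the end of transcription are not distinguished.

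Other families of zinc finger factors had shares on either side of this. The share with an end island in all 4 libraries was 90.2% of 41 ZBTB genes, which join zinc fingers to a BTB domain, 77.8% of 18 ZSCAN and ZKSCAN genes, which carry a SCAN domain, and 84.6% of 13 ZFP genes. These shares were not tested against each other.

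**Figure D1:**
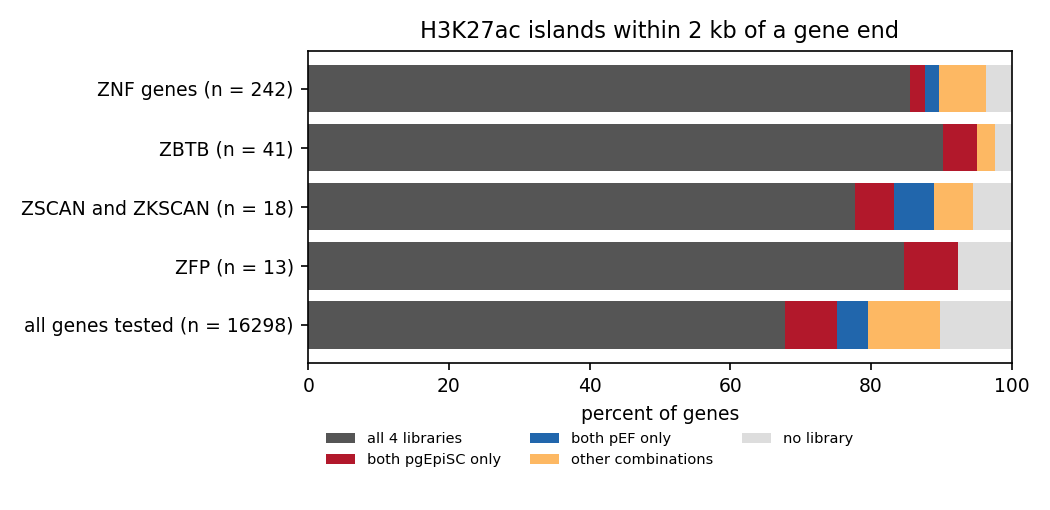
Percent of genes by the libraries in which an H3K27ac island lay within 2 kb of either gene end, for the ZNF genes, 3 related groups and all genes tested, with the number of genes in each. The bar of the ZNF genes shows 85.5% with an island in all 4 libraries, beside 67.8% over all genes, and small shares in 1 cell type alone.

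The islands at ZNF gene ends were short and dense. At the 207 genes with an end island in every library, the islands touching the ends had median lengths of 4.4 and 4.2 kb in pgEpiSC 1 and 4 and 3 and 2.6 kb in pEF 1 and 2. The medians over all genes with such islands were 7.6, 7.2, 4.6 and 4.4 kb in the same order. Density, in CPM per kb of island (reads scaled to all ChIP reads in islands of the library), had ZNF medians of 3.82, 3.65, 6.36 and 5.93, beside 3.22, 3.21, 5.17 and 4.89 over all genes. In each of the 4 libraries the ZNF median was thus lower in length and higher in density. The median fold over input was likewise higher for the ZNF genes, at 3.02, 2.54, 9.11 and 7.95 against 2.62, 2.35, 7.64 and 6.96. Related families shared part of this. ZSCAN and ZKSCAN genes had median lengths of 4.8, 3.6, 2 and 1.8 kb. At ZBTB and ZFP genes the lengths exceeded the medians of all genes. Density medians were 3.54, 3.47, 5.99 and 5.25 at ZBTB and 3.74, 3.92, 5.83 and 5.55 at ZFP genes, above all genes in each library. At ZSCAN and ZKSCAN genes they were 3.60, 3.82, 4.14 and 4.23, above all genes in pgEpiSC alone. These differences are a description and were not tested.

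**Figure D2:**
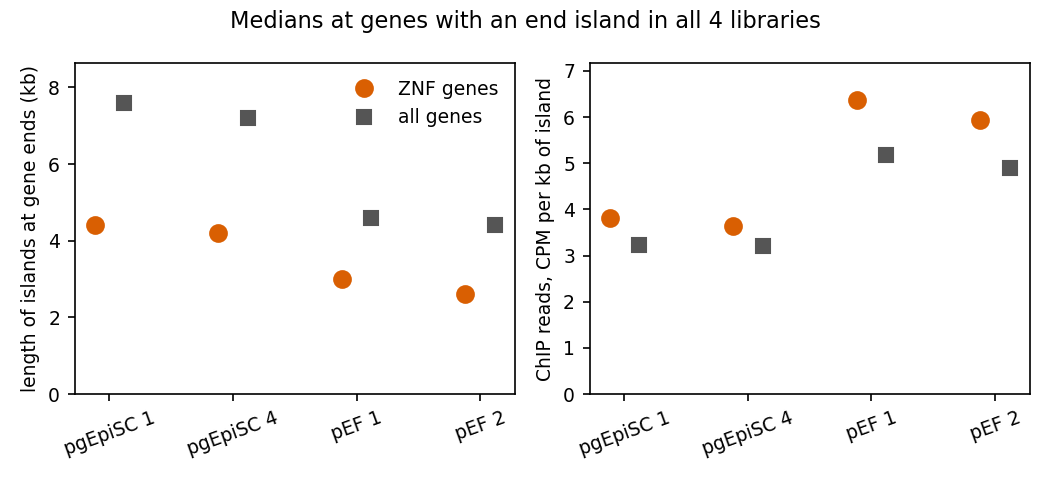
Medians by library over genes with an end island in all 4 libraries: length of the islands at gene ends in kb (left) and density in CPM per kb (right), for ZNF genes (circles) and all genes (squares). The ZNF medians of length, from 2.6 to 4.4 kb, lie under those of all genes in each library, and the ZNF medians of density, from 3.65 to 6.36, lie above them.

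Neighbouring genes share some of these islands. Another protein-coding gene had an end inside the window of 163 ZNF genes, where the window is the gene body with 10 kb on either side. At 102 ZNF genes an end island reached the end window of another gene in at least 1 library, and at 64 it did so in all 4. An island counted for a ZNF gene may therefore belong to its neighbour.

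Acetylated length, the kb covered by islands in that window, was also short. The ZNF medians were 7, 7.12, 4.8 and 4.4 kb in pgEpiSC 1, pgEpiSC 4, pEF 1 and pEF 2, beside 11.4, 12, 7.4 and 7 kb over all genes. As a share of the window the ZNF medians were 16.5%, 16.2%, 10.5% and 9.88%, beside 21.8%, 22.9%, 14.1% and 13.4%. ZNF genes were somewhat shorter, with a median of 20.8 kb against 25.6 kb. Under 10 kb was covered in every library at 120 ZNF genes, or 49.6%, and at 29.3% of all genes. None of the 242 ZNF genes lacked islands in all 4 libraries. Of all 16298 genes 609 did, and of the 15689 on chromosomes 1 to 18, 534 did.

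Between the cell types, 74 ZNF genes had a longer acetylated length in pgEpiSC, 19 in pEF, and 149 did not pass (limma on log2(kb + 1), adjusted p under 0.05). These are 30.6% and 7.85% of the family, and the background over all genes was 31.9% higher in pgEpiSC and 10.9% higher in pEF. The median log2 fold change of pgEpiSC over pEF was 0.43 over the ZNF genes and 0.46 over all genes. Of the 79 ZNF genes with no other gene end in the window, 30 (38%) were higher in pgEpiSC and 4 (5.06%) in pEF.

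The split between the directions changed with the scaling. The median gene lay higher by 0.63 on the log2 scale in pgEpiSC, and after centring every library at its median gene, pgEpiSC was higher at 34 ZNF genes (14%) and pEF at 45 (18.6%). Over all genes these shares were 22.8% and 24.6%. With edgeR on the reads of the window, pgEpiSC was higher at 37 ZNF genes (15.3%) and pEF at 50 (20.7%), beside 24.7% and 22.4% of all genes. With islands of at least 2-fold over input alone, the ZNF counts were 18 (7.44%) and 28 (11.6%), beside 7.06% and 16.5% of all genes. The ZNF share in pEF thus lay below that of all genes in these 3 settings, and the share in pgEpiSC in 2 of them, and neither difference was tested. Of the genes past the threshold before centring, 53 passed in the same direction after it, which were 34 higher in pgEpiSC and all 19 higher in pEF. Centring moved every gene towards pEF by the same amount, so it was no strict check of the 19. With the 2-fold islands, 29 passed again in the same direction, 18 in pgEpiSC and 11 in pEF, and 3 turned from pgEpiSC to pEF. Leaving out any single library lowered the counts in both directions, over all genes as well as among the ZNF genes.

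**Figure D3:**
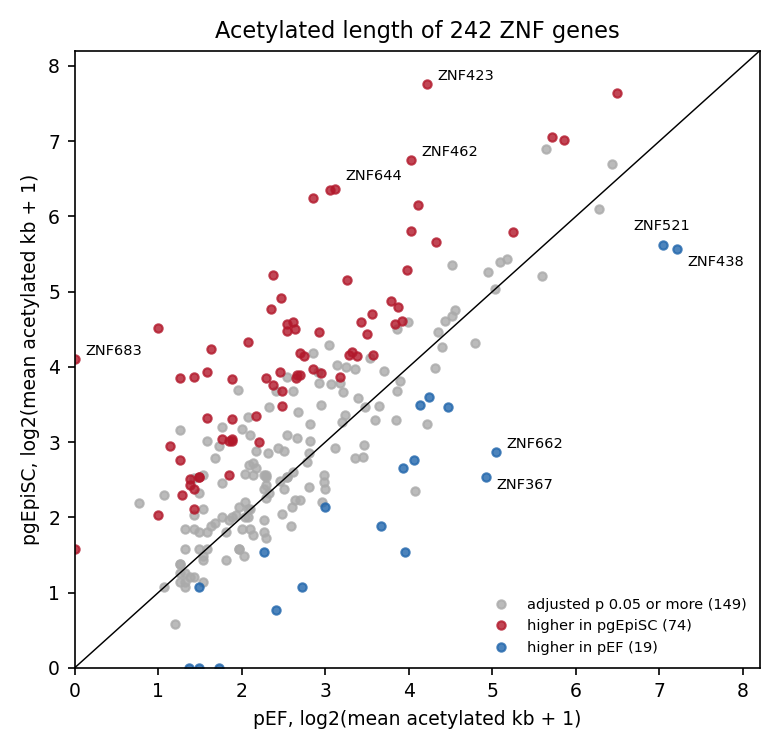
Each point is 1 ZNF gene, plotted as log2 of the mean acetylated kb plus 1 in pEF (horizontal) and pgEpiSC (vertical), with the line of equal length. The 74 genes higher in pgEpiSC lie above the line and the 19 higher in pEF below it, and ZNF423, ZNF462, ZNF438 and ZNF521 are among the labelled genes far from it.

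On the log2(kb + 1) scale, the largest differences towards pgEpiSC were at ZNF683 and then ZNF750, both known from differentiated cells and both with short or absent stretches in pEF. ZNF683, which encodes HOBIT, a factor of tissue-resident lymphocytes, had 14.6 and 17.7 kb in pgEpiSC, while both pEF lists had no island there (adjusted p = 0.00302), so no fold is given against a group at 0. ZNF750, a regulator of epidermal differentiation, had 20.5 and 23.3 kb in pgEpiSC, no island in pEF 1 and 2 kb in pEF 2 (adjusted p = 0.0297). The islands at the ends of ZNF683 were of low enrichment, at 1.84-fold and 1.99-fold over input.

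The next 6 genes in size of difference had longer stretches of acetylation in pgEpiSC. ZNF423, a partner of SMAD proteins in BMP signalling and a regulator of preadipocyte identity, was covered over 198 and 233 kb in pgEpiSC 1 and 4 and over 19 and 16.2 kb in pEF 1 and 2 (log2 fold change 3.54, adjusted p = 0.00317). In pgEpiSC that was 50.7% and 59.6% of its window. ZNF462, a large zinc finger protein linked to chromatin organisation in pluripotent cells, had 104 and 109 kb against 15.8 and 14.8 kb (log2 fold change 2.72, adjusted p = 0.00291). At both genes the libraries of each type lay close together and the types were far apart.

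ZNF644, a partner of the H3K9 methyltransferases EHMT1 and EHMT2, had 88.1 and 75 kb in pgEpiSC against 8.6 and 6.8 kb in pEF (a log2 fold change of 3.25, adjusted p = 0.00419). ZNF277 had 83.7 and 77.7 kb against 6 and 8.6 kb, a log2 fold change of 3.32. ZNF710 had 76.5 and 73.3 kb against 5.2 and 7.2 kb, a log2 fold change of 3.41. At these 3 genes every pgEpiSC library held more than 8 times the length of either pEF library. ZNF831 had 38.6 and 34 kb against 3.6 and 4.8 kb (log2 fold change 2.85, adjusted p = 0.00562). All 8 stayed past the threshold after centring, and ZNF423, ZNF710, ZNF831 and ZNF462 also did so with the 2-fold islands. ZNF683, ZNF423 and ZNF462 passed whichever library was left out, while the other 5 did not pass without pgEpiSC 1 (adjusted p up to 0.157) or without pgEpiSC 4 (up to 0.168).

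**Figure D4:**
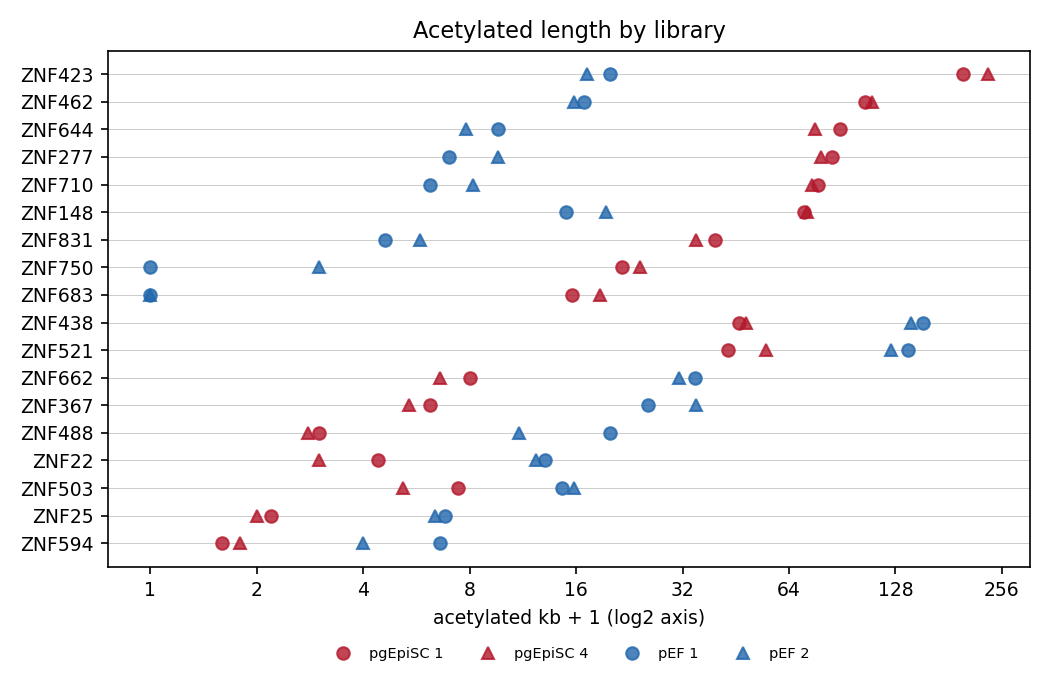
Acetylated length plus 1 kb of 18 ZNF genes in each library, on a log2 axis, with pgEpiSC in red, pEF in blue, circles for the lower library number and triangles for the higher. The upper 9 genes were chosen from those called higher in pgEpiSC and the lower 9 from those called higher in pEF. The cell types do not overlap at any of them, which largely follows from this choice.

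The differences towards pEF were at short and long stretches. ZNF367 was covered over 5.2 and 4.4 kb in pgEpiSC against 24.6 and 34 kb in pEF (a log2 fold change of -2.37, adjusted p = 0.0099). ZNF488, known from oligodendrocyte differentiation, had 2 and 1.8 kb against 19 and 10 kb (log2 fold change -2.36, adjusted p = 0.0256). In kb, though not on the log2 scale of the test, the pEF libraries differed at ZNF488 by more than pEF 2 did from pgEpiSC. The types did not overlap. ZNF662 had 7.02 and 5.6 kb against 33.8 and 30.2 kb, a log2 fold change of -2.18. ZNF438 had 45.2 and 47.4 kb against 152 and 141 kb (log2 fold change -1.64, adjusted p = 0.00526). It was the longest ZNF gene in pEF, although it was also long in pgEpiSC.

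ZNF22 had 3.4 and 2 kb in pgEpiSC and 12.1 and 11.3 kb in pEF, and ZNF25 had 1.2 and 1 kb against 5.8 and 5.4 kb, with log2 fold changes of -1.80 and -1.65. Inside the gene itself ZNF22 had 2.89 and 1.49 kb against 3.29 and 2.29 kb, so most of its difference lay outside the gene body. ZNF594 had 0.6 and 0.8 kb against 5.6 and 3 kb, a log2 fold change of -1.60. ZNF174, a SCAN-domain repressor, had no island in either pgEpiSC list and 2.4 and 2.2 kb in pEF (adjusted p = 0.00291). All 8 passed after centring, and all but ZNF594 with the 2-fold islands. ZNF174 and ZNF25 passed whichever library was left out. The other 6 failed in at least 1 case: 3 of the 8 without pgEpiSC 1 (adjusted p up to 0.181), 6 without pgEpiSC 4 (up to 0.166), 3 without pEF 1 (up to 0.119) and 3 without pEF 2 (up to 0.114).

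The 7 genes linked to pluripotency and the early embryo all had an end island in all 4 libraries. Of these, 3 were higher in pgEpiSC, 0 in pEF and 4 did not pass, where 31.9% and 10.9% of all genes passed. The 3 were ZNF462, ZNF207 and ZNF217. ZNF207, a spindle assembly protein, had 14.4 and 12.6 kb against 5.59 and 4.99 kb (log2 fold change 1.20, adjusted p = 0.0187). Inside the gene itself ZNF207 had 4.26 and 2.39 kb against 2.79 and 2.59 kb, so most of its difference lay outside the gene body. The ChIP reads of its gene-end region did not differ past the threshold (edgeR log2 fold change -0.16, adjusted p = 0.542). ZNF217, a partner of corepressor complexes that is amplified in carcinomas, had 57.5 and 51.3 kb against 38.1 and 36.1 kb (log2 fold change 0.54, adjusted p = 0.0313). Its islands covered 91.4% and 81.6% of the window in pgEpiSC and 60.5% and 57.3% in pEF. After centring its log2 fold change was -0.09.

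ZNF281, which interacts with the core pluripotency factors, had 18.8 and 17.6 kb in pgEpiSC and 18 and 22.1 kb in pEF (adjusted p = 0.519), and the types overlapped, though after centring it was higher in pEF, at -0.76. ZNF143, an activator that binds promoters and chromatin loop anchors, had 21.4 and 25.6 kb against 23.8 and 17.4 kb and likewise overlapped. ZNF445, a keeper of imprints together with ZFP57, had 10.8 and 8.4 kb against 6.2 and 4.6 kb (adjusted p = 0.106). Its pgEpiSC libraries were both above its pEF libraries, but not beyond the spread at this threshold. ZNF335, part of a H3K4 methyltransferase complex, had 6.67 and 10.3 kb against 6.67 and 5.47 kb (adjusted p = 0.348). The ChIP reads of its gene-end region were higher in pEF (edgeR log2 fold change -1.01, adjusted p = 0.0108). Those of ZNF281, ZNF143 and ZNF445 did not pass. With 1 library left out, ZNF462 alone of the 3 genes kept its call each time, and the highest adjusted p of the others was 0.107 without pgEpiSC 1, 0.0848 without pgEpiSC 4, 0.111 without pEF 1 and 0.131 without pEF 2. After centring, 1 of the 7 was higher in pgEpiSC and 1 in pEF.

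Genes linked to mesenchyme and differentiation went both ways. Of 15, 7 (46.7%) were higher in pgEpiSC, 2 (13.3%) in pEF and 6 did not pass, beside 31.9% and 10.9% of all genes. After centring the counts were 4 and 3. The 2 higher in pEF were ZNF521 and ZNF503. ZNF521, a close relative of ZNF423 that acts in stem and progenitor cells, had 42 and 54.2 kb in pgEpiSC against 138 and 123 kb in pEF (a log2 fold change of -1.43, adjusted p = 0.0158). The related pair thus differed in opposite directions: ZNF423 had its long stretch in pgEpiSC and ZNF521 in pEF. ZNF503, a developmental repressor, had 6.4 and 4.2 kb against 13.6 and 14.8 kb (log2 fold change -1.29, adjusted p = 0.035). Its relative ZNF703 had 6.4 and 7.2 kb against 7.8 and 12.2 kb and did not pass in length (adjusted p = 0.271). After centring it was higher in pEF, at -1.10, and so were the ChIP reads of its gene-end region (edgeR log2 fold change -1.49, adjusted p = 0.00745).

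Among the 7 higher in pgEpiSC were ZNF423 and ZNF750, described above, with ZNF469, ZNF536, ZNF608, ZNF385D and ZNF385A. ZNF469, mutated in brittle cornea syndrome, had 51.3 and 58.3 kb against 16.3 and 14.3 kb (log2 fold change 1.78, adjusted p = 0.00626). With 2-fold islands alone its log2 fold change was -1.95. ZNF536, a repressor of neuronal differentiation, had 120.4 and 142 kb against 50.6 and 52.2 kb (log2 fold change 1.33, adjusted p = 0.0103), and -0.40 with 2-fold islands. ZNF608 had 129 and 127 kb against 51.6 and 62.8 kb (log2 fold change 1.15, adjusted p = 0.0153). In pgEpiSC 1 the islands filled its whole window, so the length there is a lower limit.

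The ZNF385 genes, which encode relatives of a p53 cofactor, showed a range of sizes. ZNF385D had 228 and 169 kb against 92.4 and 85.2 kb in the longest of the windows named here (log2 fold change 1.14, adjusted p = 0.0328), where the islands covered 22.8% and 16.9% of it in pgEpiSC and 9.24% and 8.52% in pEF. ZNF385A had 20.7 and 25.9 kb against 14.7 and 13.5 kb (log2 fold change 0.68, adjusted p = 0.0483), and -0.79 with 2-fold islands. ZNF385B had 48.8 and 35.4 kb against 38.4 and 31.8 kb and did not pass (adjusted p = 0.431), and with 2-fold islands it was at -2.20 and past the threshold in pEF.

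The remaining members of the list did not pass in length. ZNF516, linked to brown fat, had 106 and 99.2 kb in pgEpiSC and 94.7 and 75.3 kb in pEF, which were 79.8% and 74.5% of its window against 71.2% and 56.6%. The reads of a gene-end region of ZNF516 were higher in pEF (edgeR log2 fold change -0.86, adjusted p = 0.0151), while its other region, at 0.25, did not pass. ZNF609, the host gene of a circular RNA of muscle cells, had 81.2 and 154 kb against 52.2 and 45.6 kb. The pgEpiSC libraries of ZNF609 differed from each other more than pgEpiSC 1 did from pEF. A gene-end region of ZNF609 shared with OAZ2 had more reads in pEF (edgeR log2 fold change -1.07, adjusted p = 0.00947), while its other region, at 0.59, did not pass. ZNF365 had 17 and 11.7 kb against 14.6 and 9.4 kb and ZNF704 5.4 and 4.8 kb against 3.8 and 6.4 kb, with overlapping types at both. With 2-fold islands ZNF704 was at -2.20 and past the threshold in pEF. Of the 9 called members, ZNF423 alone passed whichever library was left out. Without pgEpiSC 1, ZNF536 passed as well (highest adjusted p of the 9, 0.157), without pgEpiSC 4 no other did (0.168), and without pEF 1 or pEF 2 ZNF469, ZNF608 and ZNF750 did (0.163 and 0.197).

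Among 8 genes of chromatin and general transcription, 4 were higher in pgEpiSC, 0 in pEF and 4 did not pass. Over all genes the shares were 31.9% and 10.9%. ZNF644, described above, was one of the 4 higher in pgEpiSC. ZNF148, a regulator of promoters with GC-rich elements, had 69.4 and 70.8 kb against 14 and 18.4 kb (log2 fold change 2.06, adjusted p = 0.00764). ZNF687, a partner of ZMYND8, had 21.1 and 22.1 kb against 6.87 and 3.6 kb (log2 fold change 1.91, adjusted p = 0.0286). ZNF24, a SCAN-domain factor, had 11 and 6.8 kb against 2.4 and 3 kb (log2 fold change 1.39, adjusted p = 0.0472), and with edgeR on the reads of the window its log2 fold change was -0.01. At all 4 genes both pgEpiSC libraries exceeded both pEF libraries, which largely follows from their having been called.

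ZNF592, which joins ZNF687 in the same complex, had nearly equal lengths of 13 and 13 kb and 14 and 13.8 kb (adjusted p = 0.5). ZNF410, an activator of CHD4, had 7.89 and 10.7 kb against 9.4 and 7.4 kb with overlapping types, and with 2-fold islands it was at -1.34 and past the threshold in pEF. The reads of its gene-end region, shared with PTGR2, were higher in pEF (edgeR log2 fold change -1.30, adjusted p = 0.0124). Those of ZNF592, ZNF384 and ZNF827 did not pass. ZNF384 had 10.9 and 14.7 kb against 5.8 and 7.4 kb (adjusted p = 0.0712). ZNF827, which recruits the NuRD complex to telomeres, had 63.4 and 71.2 kb against 67.7 and 85.3 kb and overlapped too. After centring, 3 of the 8 were higher in pgEpiSC and 2, ZNF592 and ZNF827, in pEF. None of the 4 called genes passed without pgEpiSC 1 (adjusted p 0.0501 to 0.153) or pgEpiSC 4 (0.0507 to 0.162), and ZNF24 also failed without pEF 1 (0.195) and pEF 2 (0.162).

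Of 7 genes acting on RNA and ribosomes, 4 were higher in pgEpiSC, 1 in pEF and 2 did not pass, where 31.9% and 10.9% of all genes passed. ZNF593, a ribosome assembly protein, had 14 and 14.5 kb against 4.6 and 4.4 kb (log2 fold change 1.47, adjusted p = 0.0109). ZNF622, which acts on the large ribosomal subunit, had 22.6 and 22.8 kb against 13.4 and 13.2 kb (log2 fold change 0.73, adjusted p = 0.0128). Inside the gene itself ZNF622 had 12.7 and 12.9 kb against 12.3 and 11.6 kb, so most of its difference lay outside the gene body. ZNF598, the ubiquitin ligase that senses collided ribosomes, had 17.6 and 16 kb against 9.11 and 8.3 kb (log2 fold change 0.87, adjusted p = 0.0199). With 2-fold islands alone ZNF598 was at -1.64 and past the threshold in pEF. ZNF706 had 29 and 21.2 kb against 12.3 and 9.2 kb, filling its window in pgEpiSC 1 (log2 fold change 1.15, adjusted p = 0.0422).

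ZNF346, a protein that binds double-stranded RNA, was the one of these genes higher in pEF, with 10.6 and 11.6 kb in pgEpiSC against 19.6 and 16.2 kb in pEF (a log2 fold change of -0.64, adjusted p = 0.0486). ZNF638, a nuclear RNA-binding protein, had 18.6 and 27.6 kb against 14.4 and 15.3 kb (adjusted p = 0.142). ZNF106 had 17.2 and 20.8 kb against 30.2 and 23.2 kb (adjusted p = 0.151), and after centring it was higher in pEF, at -1.10. After centring the counts of the 7 were 1 in pgEpiSC and 2 in pEF. None of the 5 called genes passed whichever library was left out, with adjusted p-values up to 0.187 without pgEpiSC 1, 0.159 without pgEpiSC 4, 0.143 without pEF 1 and 0.168 without pEF 2.

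A list of genes of the KRAB corepressor and of H3K9 methylation more broadly was acetylated in both cell types. Not all of its members belong to the machinery that KRAB domains recruit. Of its 20 genes measured, 5 (25%) were higher in pgEpiSC, 0 in pEF and 15 did not pass, beside 31.9% and 10.9% of all genes. An end island lay in all 4 libraries at 18 of them, or 90%, beside 67.8% of all genes. TRIM28, the scaffold of the KRAB corepressor, had 17.6 and 20.6 kb in pgEpiSC and 12.4 and 11 kb in pEF, a log2 fold change of 0.66. EHMT2, an H3K9 methyltransferase, had 20.9 and 21.9 kb against 10.1 kb in both pEF libraries, a log2 fold change of 1.01. Also past the threshold were ATF7IP, a cofactor of SETDB1, with 1.21, and the methyltransferase gene SUV39H2 with 1.83. SETDB1 itself had 9.2 and 9.8 kb in pgEpiSC and 12.4 and 13.6 kb in pEF and did not pass. After centring, 2 of the 20 were higher in pgEpiSC and 5 in pEF.

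Of the genes with an end island in 1 cell type alone, 5 had it in both pgEpiSC libraries: ZNF683, ZNF510, ZNF382, ZNF385C and ZNF385D. ZNF510 had 1.8 and 2.2 kb in pgEpiSC, with none in the pEF lists, but its islands reached only 1.63-fold and 1.45-fold over input. ZNF382, a KRAB-domain gene, had 3.6 and 3 kb against 1.8 and 1.6 kb (log2 fold change 0.67, adjusted p = 0.0364). In pEF, islands lay in the same 3.8 kb stretch but beyond the 2 kb limit. The reads of that stretch did not differ past the threshold (edgeR log2 fold change 0.63, adjusted p = 0.124). ZNF385C had 14.3 and 22.8 kb against 8.33 and 6.21 kb and did not pass in length (adjusted p = 0.0604). With 2-fold islands the number of ZNF genes with an end island in pgEpiSC alone was 2 (0.826%), beside 2.06% of all genes.

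The 5 with an end island in both pEF libraries alone were ZNF174, ZNF175, ZNF641, ZNF536 and ZNF804A. ZNF175 had no island in the pgEpiSC lists and 1.58 and 1.6 kb in pEF, and ZNF641 none against 1.8 kb in each pEF library. The end islands of ZNF175 were enriched 14.3-fold and 5.41-fold over input, and those of ZNF641 7.55-fold and 7.33-fold. ZNF536 and ZNF804A were unlike these, since islands away from the ends made them longer in pgEpiSC. ZNF804A had 37.2 and 32 kb in pgEpiSC, none at an end, against 6.6 and 10.6 kb in pEF (a log2 fold change of 1.92, adjusted p = 0.0194). At ZNF536 the end islands of pEF were 15.6 and 12 kb long, beside 120.4 and 142 kb in pgEpiSC that lay more than 2 kb from either end. Part of the pgEpiSC length lay in the same 5.8 kb stretch as a pEF end island, with fewer reads (edgeR log2 fold change -1.68, adjusted p = 0.00716). With 2-fold islands, 22 ZNF genes (9.09%) had an end island in pEF alone, beside 12.4% of all genes. Without pgEpiSC 1 or pgEpiSC 4 the numbers were 10 (4.13%) and 8 (3.31%), beside 5.54% and 6.14% of all genes.

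The 9 genes with no end island in any library were ZNF883, ZNF804B, ZNF19, ZNF582, ZNF300, ZNF554, ZNF416, ZNF132 and ZNF215, named after their values were seen. Each still had islands elsewhere in its window. ZNF883 had 7.4 and 6 kb in pgEpiSC and 1.2 kb in each pEF library (log2 fold change 1.80), and the other 8 did not pass.

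ChIP reads at gene ends gave another measure of acetylation. Overlapping islands were merged into regions, and the reads inside each library's islands were compared by edgeR in the regions called in all 4 libraries. There were 227 such regions at an end of 210 ZNF genes, with 34 higher in pgEpiSC, 57 (25.1%) higher in pEF, and 136 that did not pass. The background over all 20498 regions was 22.7% in favour of pgEpiSC and 23.4% in favour of pEF, and over the 10281 regions at gene ends 19.3% and 25.6%. The median log2 fold change was -0.16 both over the ZNF regions and over all gene-end regions, and the ZNF regions were shorter, with a median of 5.8 kb against 8.4 kb. Without pgEpiSC 1 or pgEpiSC 4 both ZNF counts fell, and so did those over all regions. The median log2 fold change of the ZNF regions was then -0.14 and -0.21.

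In CPM, here reads scaled to those in all shared regions, the ZNF region with the largest difference towards pEF was chr10:42011601-42023200 at an end of ZNF438, with 6.49 and 7.89 in pgEpiSC and 147 and 136 in pEF (edgeR log2 fold change -4.54, adjusted p = 0.0013). It also covers an end of ZEB1, a repressor of epithelial genes, so its reads cannot be assigned to ZNF438 alone. At ZNF503, chr14:77921601-77936400 had 20.02 and 13.2 against 140 and 117 (log2 fold change -3.19). At ZNF25, chr14:60938001-60945000 had 8.18 and 6.67 against 64.8 and 49.3 (log2 fold change -3.18). The types were far apart at all 3. The regions of ZNF346, shared with UIMC1, and of ZNF22, shared with RASSF4 and C14H10orf10, had log2 fold changes of -2.76 and -2.62.

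In the other direction, chr6:46076401-46091800 at ZNF568 had 141 and 133 CPM in pgEpiSC and 17.3 and 15.3 in pEF (log2 fold change 2.83, adjusted p = 0.00143). At ZNF652, chr12:25484801-25518800 had 191 and 182 against 30.1 and 37.1 (log2 fold change 2.23). The region at ZNF500, chr3:37642201-37657800, had 20.9 and 49.3 against 4.12 and 2.74 (log2 fold change 3.12), with the pgEpiSC libraries apart from each other, and it also holds an end of C3H16orf71. ZNF134, at chr6:62081801-62085600, and ZNF205, at chr3:39101801-39105400, both had log2 fold changes of 2.29. Of these 10 regions, ZNF205 alone lost its call on leaving out a library, with adjusted p = 0.0612 without pgEpiSC 1 and 0.0648 without pgEpiSC 4. Positions are those of the lists, whose genome build was not named.

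Many ZNF genes sit next to each other. Runs of at least 3 ZNF genes with gaps of at most 200 kb made 16 clusters holding 93 genes. Of the clustered genes 25 (26.9%) were higher in pgEpiSC, 4 (4.3%) in pEF and 64 did not pass. Of the 149 others the counts were 49 (32.9%), 15 (10.1%) and 85, and the shares over all genes were 31.9% and 10.9%. Clustered genes were covered less, with a median of 4.6 kb in pgEpiSC 1 against 8.84 kb outside. An end island in all 4 libraries was present at 83 of the 93, or 89.2%, beside 67.8% of all genes. These 2 sets were not tested against each other, and genes of a cluster can share islands.

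The largest cluster, on chromosome 6 from ZNF146 to ZNF570, had 12 genes. In pgEpiSC 7 of them were higher, and in pEF 0, where 31.9% and 10.9% of all genes passed. ZNF568, a KRAB-domain gene, had 14.6 and 12.6 kb in pgEpiSC and 1.6 and 1.8 kb in pEF, a log2 fold change of 2.43. ZNF146, at one side, had 45.5 and 53.9 kb against 21.9 and 16.1 kb, while ZNF570, at the other, had 3 and 2.8 kb against 3.8 kb in both pEF libraries and did not pass. Genes past the threshold and genes not past it lay side by side in the run.

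On chromosome 18, the 8 genes from ZNF282 to ZNF775 included 4 higher in pgEpiSC and 0 in pEF. Over all genes the shares were 31.9% and 10.9%. ZNF282 had 21.2 and 21.4 kb against 4.8 kb in both pEF libraries, and ZNF775 had 8.4 and 13.6 kb against 10 and 9 kb. ZNF212, between them, was among the 3 genes that turned with 2-fold islands, from 0.80 to -1.06, and the others were ZNF598 and ZNF658, from 1.04 to -1.48, all named after their values were seen. The 6 genes from ZNF628 to ZNF581 on chromosome 6 were the most covered cluster, with medians of 19, 18.2, 10 and 9.72 kb over the 4 libraries and 3 genes higher in pgEpiSC. No gene passed in 4 of the 16 clusters, which were ZNF12 to ZNF853, ZNF34 to ZNF251, ZNF135 to ZNF446 and ZNF286A to ZNF287. Over chromosome 6 as a whole, pgEpiSC was higher at 29 of 77 ZNF genes (37.7%) and pEF at 3 (3.9%). Elsewhere the counts were 45 (27.3%) and 16 (9.7%) of 165, beside 31.9% and 10.9% of all genes. After centring the counts were 16 and 9 on chromosome 6 and 18 and 36 elsewhere, beside 22.8% and 24.6% of all genes, and the difference between chromosomes was not tested.

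**Figure D5:**
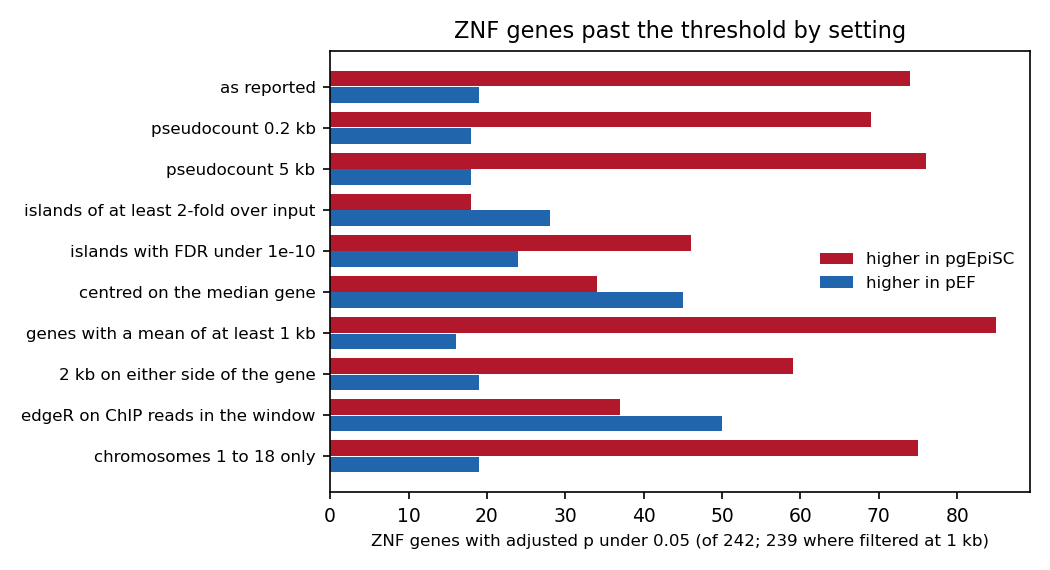
Number of ZNF genes with a longer acetylated length in pgEpiSC (red) or pEF (blue) as reported and under each other setting. The count in pgEpiSC falls from 74 to 18 with islands of at least 2-fold over input and to 34 after centring, where that of pEF rises from 19 to 28 and to 45.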

How the data were processed

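The data were 4 deposited island lists, 1 for each H3K27ac library of pgEpiSC or pEF, and the 4 inputs enter only as read numbers inside them. BWA 0.7.15, SAMtools 0.1.19 and SICER 1.1 are named per the submitters' processing notes. The deposited count columns hold whole ChIP and input reads per island, deposited p-value and FDR columns compare each island with input, and the deposited ratio is the fold over scaled input. Islands were built from 200 bp windows with gaps of at least 800 bp, and no FDR limit had been applied to the lists. Total depth is unknown, and duplicate removal, read filters and the genome build are not given in the sources used here. Gene ends of the RefSeq table for Sscrofa11.1 lay inside islands at a median of 44.2% over chromosomes, against 19.4% at a distance of 20 kb, with the same order on 19 of 19, so that table was used for gene positions. It gives no strand, and no gene sequence was used here.

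For acetylated length, log2(kb + 1) entered limma 3.58.1 with a mean-variance trend, so fold changes understate those of short stretches, over 16298 genes with 2 residual degrees of freedom. ChIP reads in the 20498 regions called in all 4 libraries, where islands overlapping by at least 1 bp were merged, were tested by edgeR 4.0.16 (quasi-likelihood, TMM factors 0.905 to 1.09, common dispersion 0.0795). P-values were Benjamini-Hochberg adjusted over all genes or regions, with a threshold of 0.05. Both fits were run on simulated data with independent noise and no shift shared by all genes, so those runs do not bear on the scaling. DESeq2 1.42.0, R 4.3.3, Python 3.11.15, numpy 2.4.6, pandas 2.3.3 and matplotlib 3.10.9 were also used. The 4 libraries gave no batch label.

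The family, the 4 role lists, the corepressor list and the naming rule were chosen with earlier results of these data known. The rule named the role list members, the 8 largest differences in length per direction past the threshold, up to 12 genes per direction with end islands in 1 type alone, 5 gene-end regions per direction, the 5 longest genes per type, genes with no island, and the first and last gene of each cluster. It gave 89 genes, of which the text describes those that carry the results. ZNF398, ZNF532, ZNF274 and ZNF326 of the role lists and MTA1, TASOR, RESF1 and EHMT1 of the corepressor list were not analysed here. Grouping by sequence was not run. The values of 1 further gene of the corepressor list are not reported here.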

Additional observations from a re-analysis of the deposited data

How the results depend on the processing

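With 2 libraries per type the tests rest on 2 residual degrees of freedom, and with 1 library left out the lone library of a type is assumed to vary like the other type. Short stretches are limited by the 200 bp windows of the lists, and total depth is unknown. Restricting islands to 2-fold over input favours the more enriched pEF lists by its construction. Centring likewise moves every log2 fold change towards pEF by 0.63. For the other changes the cause was not tested. No paired analysis was possible because the pgEpiSC and pEF libraries share only the number 1, and no label says that it marks a common source. The alternative that uses start sites alone was not run, since strand was not given.

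The 74 ZNF genes longer in pgEpiSC became 18 with islands of at least 2-fold over input, 46 with islands of FDR under 1e-10, 34 after centring and 37 with edgeR on the reads of the window, and the leave-out counts ran from 17 to 27. The 19 longer in pEF became 45 after centring and 50 with edgeR, and 6 to 9 with a library left out. The median log2 fold change of 0.43 was 0.27 with a pseudocount of 5 kb, -0.12 with 2-fold islands, 0.18 with the FDR limit, -0.20 after centring, 0.30 with 2 kb on either side and -0.13 with edgeR, and 0.39 to 0.54 with a library left out. A pseudocount of 0.2 kb, the filter at a mean of 1 kb and the limit to chromosomes 1 to 18 kept all 3 within 1.5 times. The counts over all genes also fell in both directions with a library left out.

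The 5 genes with end islands in pgEpiSC alone became 8 within 1 kb, 3 within 5 kb, 2 with 2-fold islands and 3 with the FDR limit, and 5 to 7 with a library left out. Those in pEF alone became 3 within 5 kb, 22 with 2-fold islands and 13 with the FDR limit, and 5 to 10 with a library left out. With 2-fold islands and with the FDR limit the shares in pEF alone were 9.09% and 5.37%, beside 12.4% and 7.04% of all genes. The 9 with none became 4 within 5 kb and 15 with 2-fold islands. The 207 with an end island in all libraries stayed within 1.5 times under each setting run. The 34 and 57 gene-end regions higher in pgEpiSC and in pEF ranged from 9 to 33 and from 17 to 62 with a library left out, and stayed within 1.5 times under the other settings run.

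Log2 fold changes that turned direction were, with 2-fold islands, ZNF143 -0.73, ZNF469 -1.95, ZNF385A -0.79, ZNF385B -2.20, ZNF536 -0.40, ZNF516 -0.31, ZNF609 -0.45, ZNF365 -0.91, ZNF704 -2.20, ZNF410 -1.34, ZNF598 -1.64, ZNF638 -0.15, ZNF385C -0.11, ZNF212 -1.06 and ZNF658 -1.48. With the FDR limit they were ZNF143 -0.11, ZNF704 -1.76, ZNF410 -1.34 and ZNF212 -0.15. After centring they were ZNF143 -0.44, ZNF217 -0.091, ZNF335 -0.23, ZNF385B -0.39, ZNF516 -0.35, ZNF365 -0.38, ZNF704 -0.60, ZNF410 -0.51 and ZNF638 -0.051. With edgeR they were ZNF143 -0.45, ZNF335 -0.81, ZNF516 -0.48, ZNF384 -0.25, ZNF410 -0.61, ZNF24 -0.011 and ZNF212 -0.77, and with 2 kb on either side ZNF281 0.0040, ZNF410 -0.11 and ZNF212 -0.49. With a library left out, ZNF281 ranged from -0.27 to 0.014, ZNF143 from -0.023 to 0.41, ZNF365 from -0.043 to 0.54, ZNF704 from -0.28 to 0.34 and ZNF410 from -0.073 to 0.32. The log2 fold changes of the 10 named gene-end regions kept their direction under each setting run.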
